A study of Mus musculus with 14 samples.

Results

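Milk is made by secretory epithelium, and 6 genes of milk proteins and of the milk fat globule are described here in sorted mammary cells of virgin mice: Csn3, Lalba, Wfdc18, Btn1a1, Mfge8 and Glycam1. They were chosen by name, with earlier results of these data known though by no rule on their values, and every probe set that the platform annotation gave to one of them and to no other gene was taken. These were 8 of the 9645 probe sets in the table, 3 for Btn1a1 and 1 for each other gene, and the 6 genes were compared with 6044 named genes in all. The table held only probe sets that varied at least 4-fold between arrays, with each probe set centred on its mean over the 14 arrays. A value of 1 therefore meant 2-fold above that gene's mean, and levels could not be compared between genes.

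RNA was amplified in 2 cycles and hybridized to Affymetrix oligonucleotide arrays of the mouse genome. All cells came from virgin female C57BL/6 mice aged 6 to 8 weeks, and were sorted 2 times on CD24, CD49f and Thy-1, with stains for blood (CD45 and Ter119) and endothelial (CD31) cells. The study's methods also list an antibody to CD140a, the receptor encoded by the fibroblast gene Pdgfra, which the labels of these arrays do not name. The 5 populations were CD24medCD49f-/low (2 arrays) and CD24highCD49fmed (3 arrays), called luminal here, and Thy-1+CD24medCD49fhigh, Thy-1-CD24medCD49fhigh and CD24medCD49fmed (3 arrays each), called basal. The labels give CD24medCD49fmed for the population that the study's text calls CD24low, and since nothing in them ties a replicate to an animal or a pool, the p-values measure the spread between these arrays, which may be technical.

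Caseins are packed into micelles in the Golgi, where lactose is also made, while lipid droplets are wrapped by the apical membrane of the cell and leave as milk fat globules. Prolactin drives this programme through the kinase Jak2 and the transcription factor Stat5a, and the transcription factor Elf5 is needed for the alveolar cells that carry it out. Full secretion belongs to late pregnancy and lactation, but luminal cells of the virgin gland can already hold transcripts of some of these genes.

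The sorted cells were first set against marker genes. A listed gene counts as measured if the filtered table held a probe set for it alone. Genes not measured may have been dim or even across arrays, so every list covers genes that varied. All 10 basal markers on the list (Krt5, Krt14 and Krt17 among them) were lower in luminal cells past the threshold. All 9 measured luminal markers (Krt8, Krt18 and Krt19 among them) were higher past it. Over all rows, 17.4% were called lower and 27.7% higher. Array medians lay between -0.15 and 0.29, except in Thy-1+CD24medCD49fhigh replicate 1 (-0.75) and replicate 3 (-0.52). Endothelial markers were high in some basal arrays, and their values stand beside Glycam1.

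RefSeq (GRCm38.p6) places Csn3 on chromosome 5 (87925579 to 87932550), Mfge8 on chromosome 7 (79133768 to 79149060), Wfdc18 on chromosome 11 (83709004 to 83711360) and Btn1a1 on chromosome 13 (23456984 to 23465914). Lalba (98480400 to 98482934) and Glycam1 (103562759 to 103565081) both lie on chromosome 15. Start-site windows were matched for 4 of the 6 genes, and the 160 bases before each start are shown because these genes differed in pattern: Wfdc18 was high in both luminal populations, Lalba and Mfge8 in one of them, and Glycam1 in some basal arrays. Capitals mark a match to TATAAA, the TATA box, in Wfdc18, and a match to TTCNNNGAA, the letters that STAT factors bind, in Glycam1.
Wfdc18, chr11:83708844-83709003, plus strand: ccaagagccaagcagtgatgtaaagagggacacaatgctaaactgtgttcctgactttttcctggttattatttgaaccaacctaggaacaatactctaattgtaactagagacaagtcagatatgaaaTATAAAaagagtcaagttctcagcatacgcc
Lalba, chr15:98482684-98482843, minus strand: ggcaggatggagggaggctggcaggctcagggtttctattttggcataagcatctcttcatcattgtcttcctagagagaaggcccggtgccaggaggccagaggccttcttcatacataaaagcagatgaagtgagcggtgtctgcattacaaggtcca
Mfge8, chr7:79149061-79149220, minus strand: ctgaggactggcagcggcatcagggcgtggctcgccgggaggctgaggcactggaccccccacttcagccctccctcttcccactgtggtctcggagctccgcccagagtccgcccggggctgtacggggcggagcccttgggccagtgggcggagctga
Glycam1, chr15:103565082-103565241, minus strand: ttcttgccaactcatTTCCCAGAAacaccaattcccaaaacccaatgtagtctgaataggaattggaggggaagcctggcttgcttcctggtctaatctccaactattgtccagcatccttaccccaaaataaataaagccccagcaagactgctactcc
Both strands of the 250 bases before each start were searched for these motifs and for the palindromic nuclear factor I motif. The match in Glycam1 began 145 bases before the start and the match in Wfdc18 31 bases before it, they did not overlap another motif, and neither Lalba nor Mfge8 had a match. Of 32851 windows of the same length in the genome, 7.02% held TTCNNNGAA, 12.4% held TATAAA and 0.0365% held the nuclear factor I motif. The Lalba window precedes a start that lies inside the annotated gene, downstream of its 5′ end, so the bases shown for Lalba are within the gene span, while the other 3 windows end where their gene begins. A match is a description of letters and does not show that a factor binds there.

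Csn3 encodes kappa-casein, which coats casein micelles and keeps them in suspension. Its centred log2 value was 3.23 and 2.98 in CD24medCD49f-/low cells and 1.85, 2.55 and 2.14 in CD24highCD49fmed cells, against -3.96, -1.85 and -2.25 in Thy-1+CD24medCD49fhigh, -0.80, -0.15 and -0.04 in Thy-1-CD24medCD49fhigh and -1.53, -1.11 and -1.06 in CD24medCD49fmed cells. Every luminal array was above every basal array, and within the basal arrays those of Thy-1+CD24medCD49fhigh cells were the lowest. The mean was 2.55 ± 0.57 in luminal arrays and -1.42 ± 1.20 in basal arrays (SD, n = 5 and 9).

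Wfdc18 encodes a small secreted protein with the 4-disulfide core of whey acidic protein, described in mice as an extracellular proteinase inhibitor. It was at 2.67 and 2.79 in CD24medCD49f-/low cells and 1.83, 2.65 and 2.30 in CD24highCD49fmed cells, against -2.71, -0.79 and -1.07 in Thy-1+CD24medCD49fhigh, -1.37, -0.23 and 0.04 in Thy-1-CD24medCD49fhigh and -2.42, -1.64 and -2.03 in CD24medCD49fmed cells. Luminal and basal arrays did not overlap, and here the CD24medCD49fmed population had the lowest mean. The mean was 2.45 ± 0.39 in luminal and -1.36 ± 0.94 in basal arrays (SD, n = 5 and 9). Its probe set is of the type that can bind related transcripts, so a share from a related gene cannot be told apart.

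Lalba encodes alpha-lactalbumin, the subunit that turns the galactosyltransferase B4galt1 into lactose synthase. Its value was 1.65 and 1.14 in CD24medCD49f-/low cells, where both arrays stood above all others. The other luminal population, CD24highCD49fmed, had 0.06, 0.29 and -0.08, against -0.13, -0.39 and -0.07 in Thy-1+CD24medCD49fhigh, -0.45, 0.04 and -0.25 in Thy-1-CD24medCD49fhigh and -0.49, -0.61 and -0.71 in CD24medCD49fmed cells. CD24highCD49fmed arrays thus overlapped basal arrays for Lalba, which they did not for Csn3 or Wfdc18.

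Btn1a1 encodes butyrophilin, a membrane protein of the milk fat globule that binds xanthine oxidoreductase and is needed for normal release of lipid droplets. The mean of its 3 probe sets was 3.65 and 2.60 in CD24medCD49f-/low cells and 1.99, 0.94 and 0.76 in CD24highCD49fmed cells, against -1.50, -1.12 and -0.72 in Thy-1+CD24medCD49fhigh, -1.05, -0.69 and -0.95 in Thy-1-CD24medCD49fhigh and -1.23, -1.41 and -1.26 in CD24medCD49fmed cells. The arrays fell into 3 levels with no overlap between them, CD24medCD49f-/low above CD24highCD49fmed above all basal arrays. The mean was 1.99 ± 1.20 in luminal and -1.10 ± 0.28 in basal arrays (SD, n = 5 and 9).

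The probe sets of Btn1a1 differed in how far they set CD24highCD49fmed cells apart. Probe set 1419175_a_at gave 2.46, 1.91 and 2.06 in the 3 CD24highCD49fmed arrays, clear of the basal arrays, whose highest value was -0.72. Probe set 1425754_a_at gave 1.80, 0.24 and -0.24 there, where the basal maximum was -0.40, so that replicate 3 lay close to the basal arrays. Probe set 1451824_at gave 1.70, 0.67 and 0.46, all 3 above its basal maximum of -0.57. Basal arrays spanned 2.37 with 1419175_a_at, 0.95 with 1425754_a_at and 0.43 with 1451824_at, and the lowest single value of the gene (-3.08, Thy-1+CD24medCD49fhigh replicate 1) came from the probe set with the widest span.

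**Figure D1:**
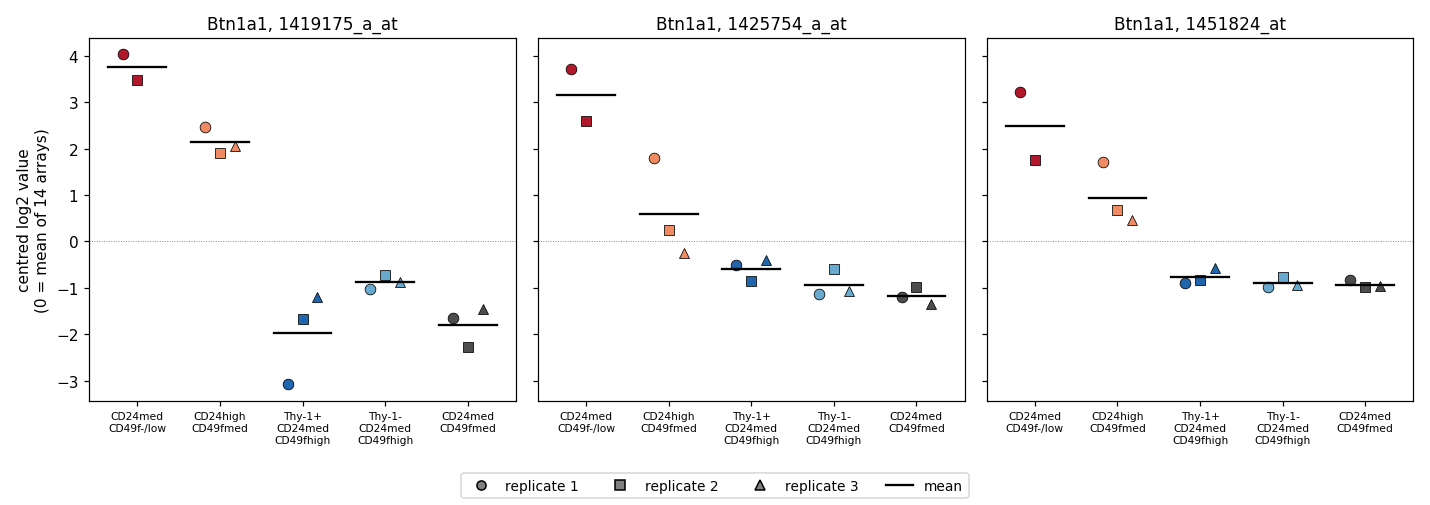
Centred log2 values of the 3 Btn1a1 probe sets (y axis, 0 is the mean of 14 arrays) in 5 sorted populations (x axis); symbols are arrays by replicate number and lines are group means. CD24medCD49f-/low arrays were highest with each probe set, and CD24highCD49fmed arrays ranged from 1.91 to 2.46 with 1419175_a_at but from -0.24 to 1.80 with 1425754_a_at.

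Mfge8 encodes lactadherin, a secreted protein of the milk fat globule that binds phosphatidylserine and integrins and takes part in the clearance of dying cells. It was at 1.39 and 1.18 in CD24medCD49f-/low cells, above every other array. CD24highCD49fmed cells had -0.07, 0.12 and 0.07, against -1.24, 0.12 and -1.69 in Thy-1+CD24medCD49fhigh, 0.06, -0.86 and 0.34 in Thy-1-CD24medCD49fhigh and 0.13, 0.17 and 0.27 in CD24medCD49fmed cells. CD24highCD49fmed arrays (-0.07 to 0.12) overlapped the basal arrays, of which 3 were low and the other 6 lay between 0.06 and 0.34. Those 3 arrays also had the lowest medians over all probe sets (-0.75, -0.52 and -0.15), and over the 9 basal arrays Mfge8 and the array median had a Pearson r of 0.89 and a Spearman rho of 0.58, given as a description. With the median of 10 basal epithelial markers Mfge8 had an r of 0.96 and a rho of 0.78 over the same arrays. For Csn3 the r with the array median was 0.75 (rho 0.38) and for Lalba -0.68 (rho -0.70), while Wfdc18 (0.29), Glycam1 (-0.09) and Btn1a1 (-0.04) had smaller values. The part of the array median and of the basal markers in these values was not tested.

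Glycam1 encodes a mucin-like glycoprotein that is secreted into milk and that is also made by high endothelial venules of lymph nodes, where it is a ligand of L-selectin. It did not follow the other 5 genes. Its value was -1.62 and -1.90 in CD24medCD49f-/low cells and -2.05, -0.89 and -1.51 in CD24highCD49fmed cells, against 4.19, 0.80 and -1.49 in Thy-1+CD24medCD49fhigh, 2.07, -1.41 and -1.82 in Thy-1-CD24medCD49fhigh and 4.38, 3.06 and -1.80 in CD24medCD49fmed cells. Each basal population held arrays both above 2 and below -1, and its SD of 2.14 to 3.25 exceeded that of every other member (0.07 to 1.12 in the same populations). The luminal arrays overlapped the basal arrays, with only CD24medCD49f-/low replicate 2 and CD24highCD49fmed replicate 1 below the lowest of them.

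**Figure D2:**
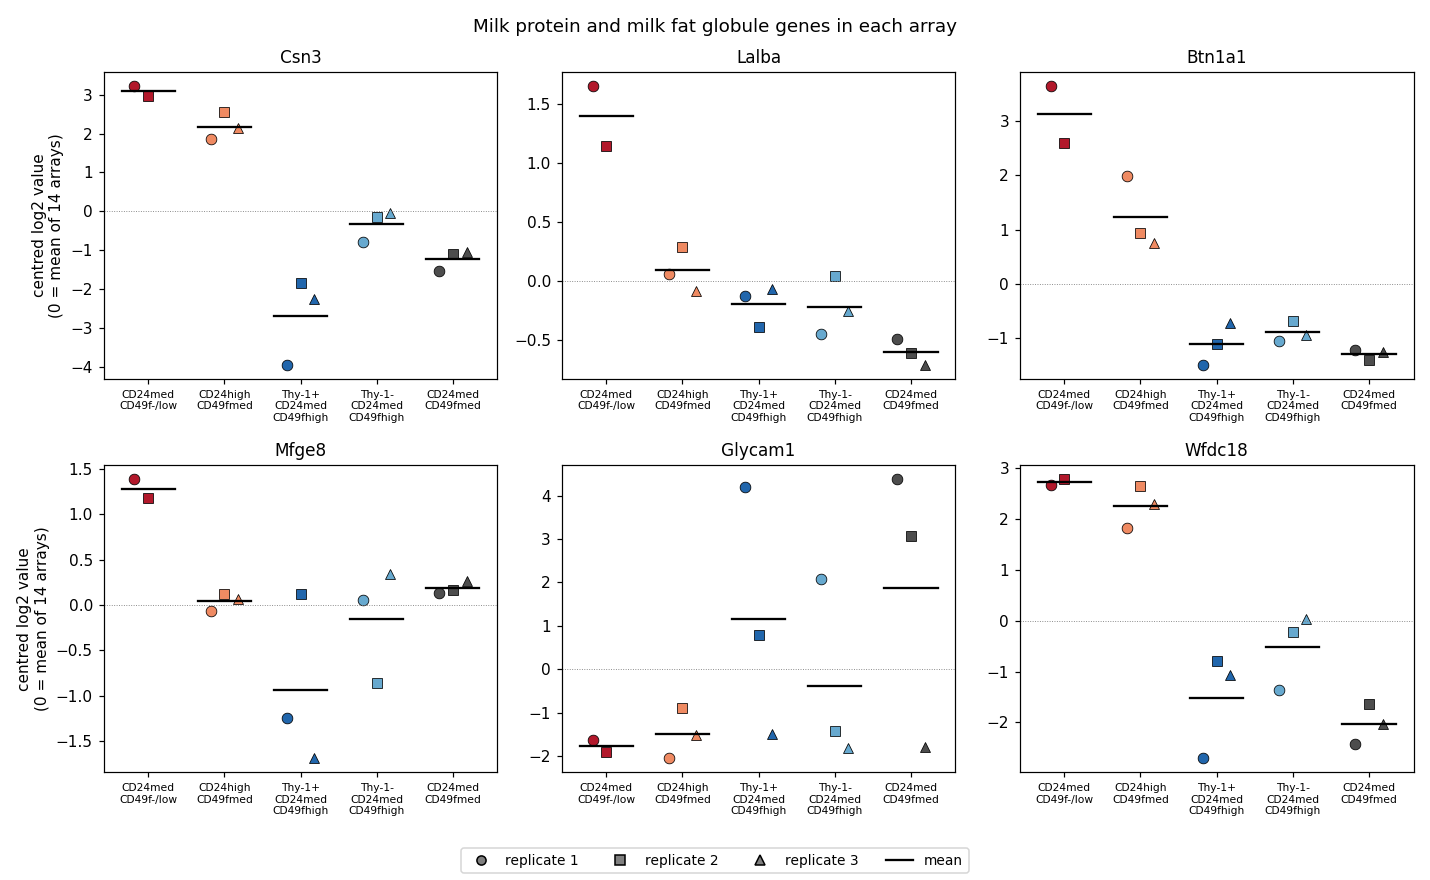
Centred log2 values (y axis, 0 is the mean of 14 arrays) of the 6 genes in 5 sorted populations (x axis), with the mean of 3 probe sets for Btn1a1; symbols are arrays by replicate number and lines are group means. Csn3, Btn1a1 and Wfdc18 separated all luminal from all basal arrays, Lalba and Mfge8 set only CD24medCD49f-/low arrays apart, and Glycam1 varied between basal arrays from -1.82 to 4.38.

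The first comparison asked how luminal cells differed from basal cells, with the mean of 2 luminal populations set against the mean of 3 basal populations in a limma fit over 14 arrays. Csn3, Wfdc18, Btn1a1, Lalba and Mfge8 were higher in luminal cells and Glycam1 was lower, with adjusted p under 0.05 for each. This comparison called 45.1% of the 7190 rows of the table (27.7% higher and 17.4% lower), so that calls were common in the whole table, and all rows had a median difference of 0.33. With each array centred on its median, 1436 rows were higher and 1560 lower, against 1989 and 1253 as deposited, and the 6 calls kept their direction and their side of the threshold.

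The rises in Csn3, Wfdc18 and Btn1a1 were of a size apart from the others. Csn3 was 16.7-fold higher in luminal cells (log2 difference 4.06, SE 0.33, limma adjusted p = 1.39e-08), Wfdc18 14.5-fold (3.85, SE 0.35, adjusted p = 4.24e-08) and Btn1a1 9.72-fold (3.28, SE 0.29, adjusted p = 4.16e-08). Luminal and basal arrays were separated by gaps of 1.90, 1.79 and 1.45 for these 3 genes, where 26% of all rows had groups that did not overlap. Each of them had an exact two-sided permutation p of 0.000999, the smallest that this test can give with 5 and 9 arrays. Any row whose groups do not overlap receives this value, so it restates the separation and adds no further evidence. The permutation also exchanged arrays without regard to their population. In these bulk samples, fewer cells of a type and less RNA per cell cannot be told apart.

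Lalba was 2.12-fold higher in luminal cells (1.08, SE 0.25, limma adjusted p = 0.00182, exact permutation p = 0.003) and Mfge8 1.95-fold (0.96, SE 0.32, limma adjusted p = 0.0184, exact permutation p = 0.0799). In 1 fit over all 14 arrays, CD24highCD49fmed cells did not pass the threshold against any basal population in either gene. For Lalba the differences were 0.29 against Thy-1+CD24medCD49fhigh, 0.31 against Thy-1-CD24medCD49fhigh and 0.70 against CD24medCD49fmed cells (SE 0.37 each, adjusted p = 0.503, 0.575 and 0.186). For Mfge8 they were 0.98, 0.19 and -0.15 in the same order (SE 0.46 each, adjusted p = 0.078, 0.796 and 0.858), and the first was as large as the difference between luminal and basal cells. The Mfge8 call was lost without CD24medCD49f-/low replicate 1 (adjusted p = 0.0815) or replicate 2 (adjusted p = 0.0587).

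Glycam1 was 5.69-fold lower in luminal cells (log2 difference -2.51, SE 0.90, limma adjusted p = 0.029), but the groups overlapped and the exact permutation p was 0.0669. Over the 14 fits that each left out 1 array, its difference ranged from -3.12 to -2.0 and 6 fits passed the threshold. The call was lost without either CD24medCD49f-/low array (adjusted p = 0.0743 without replicate 1 and 0.0971 without replicate 2) and without CD24highCD49fmed replicate 1 (0.069), and also without Thy-1+CD24medCD49fhigh replicate 1 (0.0792) or 2 (0.0505), Thy-1-CD24medCD49fhigh replicate 1 (0.0568) or CD24medCD49fmed replicate 1 (0.0551) or 2 (0.0516).

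**Figure D3:**
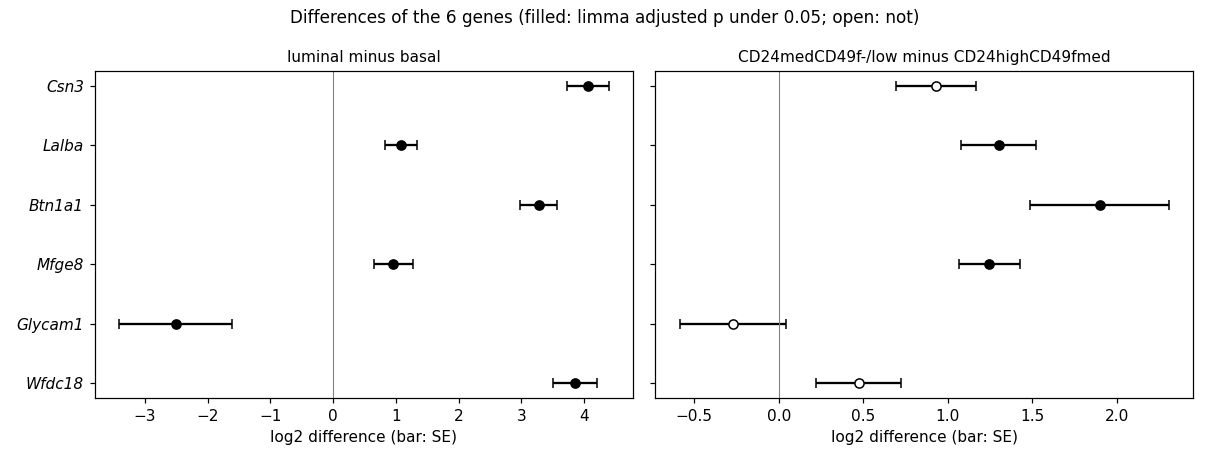
Fitted log2 differences (x axis) of the 6 genes for luminal minus basal (14 arrays) and CD24medCD49f-/low minus CD24highCD49fmed (5 arrays), with bars of 1 SE; filled points have a limma adjusted p under 0.05. Csn3, Btn1a1 and Wfdc18 lay between 3.28 and 4.06 in the first comparison, and Lalba, Btn1a1 and Mfge8 passed the threshold in the second.

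The second comparison asked how the luminal populations differed from each other, with CD24medCD49f-/low set against CD24highCD49fmed cells in the 5 arrays of both. Lalba was 2.46-fold higher in CD24medCD49f-/low cells (log2 difference 1.30, SE 0.22, limma adjusted p = 0.0201), Btn1a1 3.73-fold (1.90, SE 0.41, adjusted p = 0.0375) and Mfge8 2.37-fold (1.24, SE 0.18, adjusted p = 0.0136). Among all rows 5.59% passed the threshold (2.57% higher and 3.02% lower), with a median difference of -0.14, and 3 of the 6 genes did, all of them higher. With each array centred on its median, 276 rows were higher and 126 lower, against 185 and 217 as deposited.

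Csn3 had a difference of 0.93 (SE 0.24, limma adjusted p = 0.0572) and Wfdc18 of 0.47 (SE 0.25, adjusted p = 0.258), and Glycam1 of -0.27 (SE 0.31, adjusted p = 0.597). The arrays of the 2 populations did not overlap for 5 of the 6 genes, all but Glycam1, and for Wfdc18 the gap was only 0.02. Non-overlap was frequent with so few arrays, at 47.4% of all rows. Csn3 passed the threshold with each array centred on its median (1.09, adjusted p = 0.0439) and with array weights (0.84, adjusted p = 0.0426).

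These calls depended on few arrays. Without CD24medCD49f-/low replicate 1, Lalba (1.05, adjusted p = 0.214), Btn1a1 (1.37, adjusted p = 0.303) and Mfge8 (1.14, adjusted p = 0.157) all lost the call, and so they did without CD24highCD49fmed replicate 3 (1.22, 1.66 and 1.26, with adjusted p = 0.0891, 0.128 and 0.0619). Btn1a1 also lost it without CD24highCD49fmed replicate 2 (1.75, adjusted p = 0.0939). In 1 fit over all 14 arrays, which took the spread from all 5 populations, none of the 6 genes passed (adjusted p = 0.469 for Lalba, 0.264 for Btn1a1 and 0.866 for Mfge8) and 0.0556% of rows did.

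Some genes from lists of markers of other cells moved with this comparison. Of 10 myeloid markers 4 were measured, all of them kept by a filter that required variation between arrays. Their median was 3.19 and 0.74 in CD24medCD49f-/low cells, against -0.72, -0.28 and -0.58 in CD24highCD49fmed cells. S100a9, which encodes a neutrophil calcium-binding protein (3.36, SE 0.66, limma adjusted p = 0.0296), and Cd14, which encodes a lipopolysaccharide co-receptor (1.05, SE 0.23, adjusted p = 0.0397), were higher. Lyz2 (1.81, adjusted p = 0.0684) and S100a8 (2.43, adjusted p = 0.0959) did not pass. Cd14 (3.23, limma adjusted p = 2.08e-08) and S100a9 (1.36, adjusted p = 0.00513) were also higher in luminal than in basal cells. Myeloid and luminal sources of Cd14 and S100a9 cannot be told apart in these bulk samples. Of 10 lymphoid markers 2 were measured. Neither Ptprc, which encodes CD45 (0.46, limma adjusted p = 0.208), nor Ms4a1 (-0.18, adjusted p = 0.696) passed between the luminal populations. The median of 9 fibroblast markers was -0.28 and -1.20 in CD24medCD49f-/low cells, against -1.41, -1.21 and -1.44 in CD24highCD49fmed cells, with 1 of 9 past the threshold (Col3a1, a collagen gene, 2.22, SE 0.45, adjusted p = 0.0318). Replicate 1 of CD24medCD49f-/low cells had the highest value of both lists and of Csn3, Lalba, Btn1a1 and Mfge8 among luminal arrays. The part of these cells in the differences of the milk genes was not tested.

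The third set of comparisons was made between the basal populations, which differ in Thy-1 and CD49f, and none of the 6 genes passed the threshold in any of them as tested. Thy-1+CD24medCD49fhigh minus Thy-1-CD24medCD49fhigh was -2.36 for Csn3 (SE 0.70, limma adjusted p = 0.36), with all 3 Thy-1+CD24medCD49fhigh arrays below all 3 Thy-1-CD24medCD49fhigh arrays, and 6.66% of all rows did not overlap in this comparison. Only 0.0417% of rows were called (0.0278% higher and 0.0139% lower, 3 of 7190 in all, against 380 at an unadjusted p under 0.05), and the median difference of all rows was -0.42. Wfdc18 had -1.0 (SE 0.70), Mfge8 -0.78 (SE 0.69), Glycam1 1.55 (SE 0.80) and Lalba 0.02 (SE 0.68), and Btn1a1 had -0.21 (SE 0.68), which turned to 0.21 with arrays centred on their medians and to 0.34 after quantile normalization. With array weights Csn3 passed the threshold (-2.04, adjusted p = 0.0426).

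Markers of other cells also differed between these arrays, although none passed the threshold. The median of 9 fibroblast markers was 1.31, 0.21 and 1.46 in Thy-1+CD24medCD49fhigh cells, against -0.18, 0.03 and 0.03 in Thy-1-CD24medCD49fhigh cells, with no overlap. The median of 7 pericyte markers was 2.35, -0.22 and 0.43 in Thy-1+CD24medCD49fhigh cells, against -0.58, 0.19 and -0.21 in Thy-1-CD24medCD49fhigh cells, with overlap. Differences were above 0 for 7 of 9 fibroblast, 7 of 7 pericyte and 9 of 9 endothelial markers, against a median difference of -0.42 over all rows. Thy-1+CD24medCD49fhigh replicates 1 and 3, with fibroblast medians of 1.31 and 1.46, also had the lowest array medians (-0.75 and -0.52). Over the 9 basal arrays Csn3 had a Pearson r of -0.82 (rho -0.87) with the fibroblast median, -0.80 (rho -0.55) with the pericyte median and -0.67 (rho -0.60) with the endothelial median, given as a description. The part of these cells and of the array median in the Csn3 values was not tested.

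Thy-1+CD24medCD49fhigh minus CD24medCD49fmed was -1.45 for Csn3 (SE 0.61, limma adjusted p = 0.548) and -1.13 for Mfge8 (SE 0.57, adjusted p = 0.548), against a median of -0.51 over all rows, of which 0 were called and 383 had an unadjusted p under 0.05. Lalba had 0.41, Btn1a1 0.19, Wfdc18 0.51 and Glycam1 -0.71. Csn3, Lalba and Mfge8 did not overlap between the populations, as 8.86% of all rows did not, and their gaps were 0.33, 0.1 and 0.01. With the replicate number as a block, which matched these arrays by number only, 15 rows were higher and 40 lower, none of them a member. Mfge8 passed only without Thy-1+CD24medCD49fhigh replicate 2 (-1.65, adjusted p = 0.0443).

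Thy-1-CD24medCD49fhigh minus CD24medCD49fmed was 1.51 for Wfdc18 (SE 0.42, limma adjusted p = 0.999, unadjusted p = 0.0049) and 0.90 for Csn3 (SE 0.33, adjusted p = 0.999). No row was called and 84 had an unadjusted p under 0.05. Csn3, Wfdc18, Lalba (0.38) and Btn1a1 (0.40) were higher in all Thy-1-CD24medCD49fhigh arrays than in all CD24medCD49fmed arrays, where 3.74% of rows had groups that did not overlap. The gaps were 0.26, 0.27, 0.04 and 0.18 in that order. Mfge8 had -0.34 (SE 0.36) and Glycam1 -2.26 (SE 1.48). The median of 9 luminal markers was -1.28, -1.09 and 0.13 in Thy-1-CD24medCD49fhigh cells, against -1.76, -1.30 and -0.55 in CD24medCD49fmed cells, with overlap. Differences were above 0 for 8 of these 9 markers, with a median of 0.34 against -0.07 over all rows, and none passed the threshold. The part of luminal cells in the values of the milk genes was not tested.

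The order of the 5 population means differed between the genes. For Csn3 it ran CD24medCD49f-/low (3.11), CD24highCD49fmed (2.18), Thy-1-CD24medCD49fhigh (-0.33), CD24medCD49fmed (-1.23) and Thy-1+CD24medCD49fhigh (-2.69). Wfdc18 and Btn1a1 had the same first 3 populations in the same order, and in the fit over 14 arrays the only neighbours that differed past the threshold were CD24highCD49fmed and Thy-1-CD24medCD49fhigh. That step was 2.51 for Csn3 (SE 0.48, limma adjusted p = 0.00065), 2.78 for Wfdc18 (SE 0.50, adjusted p = 0.000402) and 2.13 for Btn1a1 (SE 0.43, adjusted p = 0.00101), where 26.9% of rows were called. For Lalba, Mfge8 and Glycam1 no pair of neighbours passed the threshold in that fit.

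Populations further apart in the order were compared in the same fit, in which each p was adjusted over all rows. CD24medCD49f-/low cells were higher than each basal population in Csn3, Wfdc18, Btn1a1 and Lalba, and higher than Thy-1+CD24medCD49fhigh cells also in Mfge8 (2.22, SE 0.51, limma adjusted p = 0.00533). Rows called in these comparisons were 19.6% against Thy-1+CD24medCD49fhigh, 17% against Thy-1-CD24medCD49fhigh and 17.9% against CD24medCD49fmed cells. Lalba had 1.59 (adjusted p = 0.0114), 1.61 (adjusted p = 0.00909) and 2.0 (adjusted p = 0.00165) in the same order. CD24highCD49fmed cells were higher than each basal population in Csn3, Wfdc18 and Btn1a1 only, where 49.2%, 26.9% and 26.1% of rows were called in that order. Glycam1 passed in none of the 10 pairs.

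Across the 14 arrays, likeness was measured as the root mean square difference of centred log2 values over 6043 other genes, as a description with no test. Csn3 was closest to Wfdc18 (0.698), then to Slc5a8 (0.724), a monocarboxylate transporter gene, and Tmc4 (0.741). Wfdc18 was closest to Ehf (0.51), Cytip (0.59) and Elf5 (0.626), of which Ehf and Elf5 encode epithelial ETS transcription factors. Btn1a1 was closest to Atp6v1b1 (0.33), which encodes a proton pump subunit, Clic6 (0.362) and Aldh1a3 (0.377), a retinaldehyde dehydrogenase gene. Lalba was closest to the sodium channel subunit gene Scnn1b (0.212), Adamts15 (0.259) and Tnf (0.262), and Mfge8 to Stk39 (0.236), Apobec3 (0.258) and Trp53bp2 (0.265). Lalba and Mfge8, both highest in CD24medCD49f-/low cells, differed by 0.74 from each other.

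Glycam1 was closest to Tek (0.574), which encodes the angiopoietin receptor of endothelial cells, Ctla2a (0.699) and Cd36 (0.777), a fatty acid receptor gene found in endothelium and on milk fat globules. Tek was at -1.42 and -1.77 in CD24medCD49f-/low cells and -1.11, -1.10 and -2.01 in CD24highCD49fmed cells, against 4.45, 1.27 and -0.82 in Thy-1+CD24medCD49fhigh, 1.69, -1.13 and -1.78 in Thy-1-CD24medCD49fhigh and 3.05, 2.28 and -1.60 in CD24medCD49fmed cells. The arrays with high Tek were the arrays with high Glycam1, replicate 1 in each basal population and replicate 2 of CD24medCD49fmed cells. Tek was picked for its likeness to Glycam1 over these same arrays, so this match follows from the choice. It also belongs to the endothelial markers given next.

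The median of 9 measured endothelial markers (of 10, with Pecam1, Cdh5 and Kdr among them) lay between -0.94 and -0.82 in the 5 luminal arrays, against 2.79, 0.07 and -0.12 in Thy-1+CD24medCD49fhigh, 0.76, -0.75 and -0.77 in Thy-1-CD24medCD49fhigh and 2.66, 0.84 and -0.79 in CD24medCD49fmed cells. Over the 9 basal arrays Glycam1 and this median, which includes Tek, had a Pearson r of 0.94 and a Spearman rho of 0.95. These are given as a description, over arrays whose replicate numbers recur in each population. Of 8 adipocyte markers 2 were measured (Fabp4 and Lep), and their median was also highest in the arrays with high Glycam1. It was 1.54 in Thy-1+CD24medCD49fhigh replicate 1, 1.14 in Thy-1-CD24medCD49fhigh replicate 1, and 1.88 and 1.36 in CD24medCD49fmed replicates 1 and 2. Other basal arrays had -0.32 to 0.78 and luminal arrays -1.79 to -1.07. Pecam1 encodes CD31, for which the cells had been stained at the sort, and it reached 3.08, 1.19 and 2.11 in replicate 1 of the basal populations (Thy-1+CD24medCD49fhigh first, then Thy-1-CD24medCD49fhigh, then CD24medCD49fmed). Of 8 markers of high endothelial venules 3 were measured (Ackr1, Selp and Sele). Their median was 2.46, 1.80 and 1.44 in the same 3 arrays, against -0.95 to -0.10 in luminal arrays and -0.59 to 0.01 in the other basal arrays. CD24medCD49fmed replicate 2, with Glycam1 at 3.06, was among the latter with a venule median of -0.26. None of the 3 genes passed the threshold between luminal and basal cells (limma adjusted p = 0.067 to 0.126).

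Glycam1 also differed with the replicate number of the basal arrays. Its mean was 3.55 in the 3 basal arrays of number 1 (2.07 to 4.38), 0.82 in those of number 2 (-1.41 to 3.06) and -1.70 in those of number 3 (-1.82 to -1.49), the last within the range of the luminal arrays. Without the 3 basal arrays of number 1, luminal minus basal fell to -1.18 (SE 0.73, limma adjusted p = 0.203), an alternative chosen after the data had been seen. The same omission left Csn3, Wfdc18, Btn1a1, Lalba and Mfge8 past the threshold. The part of endothelial cells or adipocytes in the Glycam1 values was not tested.

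**Figure D4:**
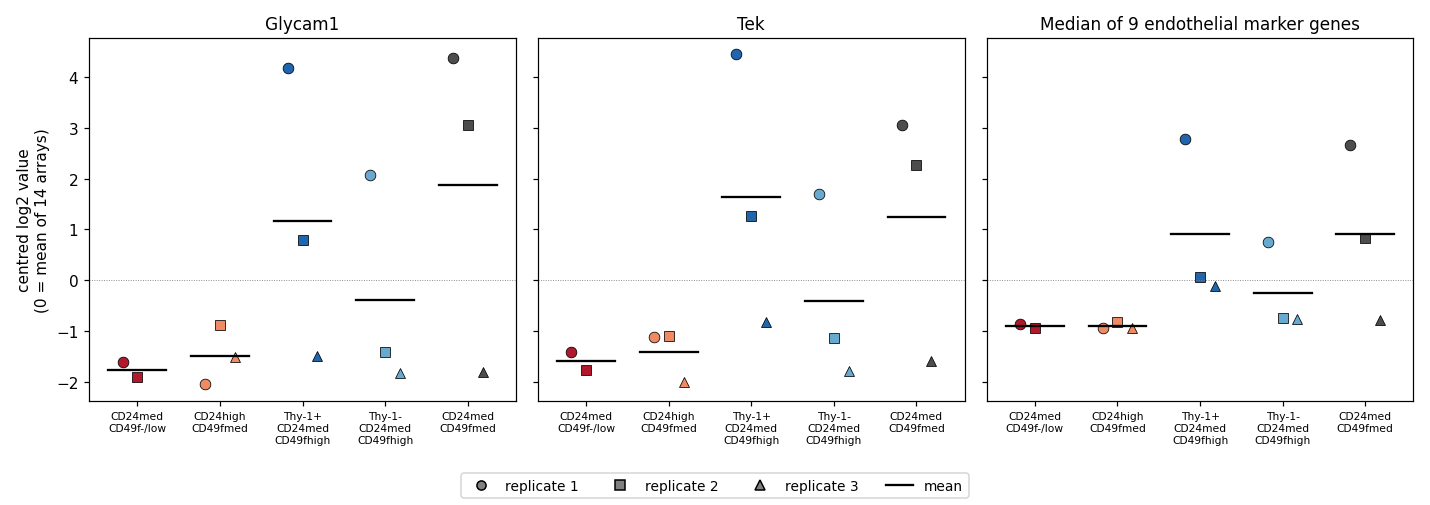
Centred log2 values (y axis, 0 is the mean of 14 arrays) of Glycam1, of Tek and of the median of 9 endothelial marker genes in 5 sorted populations (x axis); symbols are arrays by replicate number and lines are group means. The 3 basal arrays of number 1 lay between 2.07 and 4.38 for Glycam1 and between 0.76 and 2.79 for the endothelial median, and the 5 luminal arrays were below 0 in all panels.

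Other genes of milk production were set beside the 6 from lists of general knowledge, written with earlier results of these data known. Of 14 other milk protein genes 5 were measured: Ltf, which encodes lactoferrin (5.05, SE 0.26, limma adjusted p = 2.85e-11), and the casein gene Csn1s2a (1.25, SE 0.32, adjusted p = 0.00348) were higher in luminal cells, and the antiprotease gene Slpi was lower (-2.90, SE 0.39, adjusted p = 6.11e-06). The beta-casein gene Csn2 (0.67, adjusted p = 0.107) and Lcn2 (0.34, adjusted p = 0.457) did not pass. Csn2 was at 0.82 and -0.03 in CD24medCD49f-/low cells and -0.18, 1.70 and -0.11 in CD24highCD49fmed cells, and lay between -0.74 and 0.36 in basal cells. The highest Csn2 and the highest Csn3 of CD24highCD49fmed cells were in the same array, replicate 2. The median of the 5 genes was 0.67, against 0.33 over all rows, of which 27.7% were called higher and 17.4% lower.

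Of 10 other fat globule genes 7 were measured, with a median of 2.13, and 5 were higher in luminal cells and 1 lower, against 27.7% and 17.4% of all rows. These were Muc15 (2.60, SE 0.45, limma adjusted p = 0.000113), Muc1 (2.40, SE 0.28, adjusted p = 1.23e-06), Folr1 (2.23, SE 0.37, adjusted p = 7.13e-05), Clu (2.13) and Xdh (1.00), where Muc1 and Muc15 encode membrane mucins, Folr1 a folate receptor and Xdh the xanthine oxidoreductase that butyrophilin binds. Cd36 was lower (-1.98, SE 0.65, limma adjusted p = 0.0184), but its luminal arrays (-1.42 to -1.09) overlapped the basal arrays. Its highest values were in CD24medCD49fmed replicates 1 (3.98) and 2 (1.87) and Thy-1+CD24medCD49fhigh replicate 1 (3.35), which were also high in Glycam1. Clu encodes the secreted chaperone clusterin.

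Of 8 genes of lactose synthesis 7 were measured, with a median of 0.96, and 5 were higher in luminal cells, against 27.7% of all rows, among them the hexokinase gene Hk1 (1.64, SE 0.32, limma adjusted p = 0.000393), the galactosyltransferase gene B4galt1 (1.37, SE 0.28, adjusted p = 0.000641) and the UDP-galactose transporter gene Slc35a2 (1.18, SE 0.29, adjusted p = 0.0025). Of 21 genes of milk lipid synthesis 11 were measured, with a median of 0.49, and 4 were higher and 1 lower, which was near the shares over all rows (27.7% and 17.4%). The desaturase gene Scd1 (1.79, SE 0.27, adjusted p = 2.48e-05), the malic enzyme gene Me1 (1.54, SE 0.27, adjusted p = 0.000118) and the acyltransferase gene Dgat2 (1.42, SE 0.29, adjusted p = 0.000516) were higher with Gpam (1.32), and the lipoprotein receptor gene Vldlr was lower (-1.31, SE 0.29, adjusted p = 0.0012).

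Of 18 regulators of the lactogenic programme 14 were measured, with a median of 1.03, and 9 were higher in luminal cells and none lower, against 27.7% and 17.4% of all rows. Elf5 (4.48, SE 0.28, limma adjusted p = 3.39e-10), Kit, which encodes the receptor of stem cell factor (3.93, SE 0.27, adjusted p = 1.97e-09) and Ehf (3.67, SE 0.29, adjusted p = 9.15e-09) had the largest differences, and Stat5a had 1.62 (SE 0.32, adjusted p = 0.000358). Kit and Ehf also stand on the list of luminal markers used to check the sort, so their rows are counted in both lists. The feedback inhibitors of cytokine signalling Socs2 (-0.83, limma adjusted p = 0.0611) and Cish (-0.60, adjusted p = 0.126) did not pass.

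Between the luminal populations these lists split differently. Ltf (1.10, SE 0.17, limma adjusted p = 0.0175), Lcn2 (1.57, SE 0.23, adjusted p = 0.0134), Muc1 (1.63, SE 0.22, adjusted p = 0.0129), Xdh (1.49, SE 0.21, adjusted p = 0.0133), Elf5 (1.09, SE 0.19, adjusted p = 0.0219) and Kit (1.39, SE 0.25, adjusted p = 0.0222) were higher in CD24medCD49f-/low than in CD24highCD49fmed cells. These were 2 of 5 milk protein, 2 of 7 fat globule and 2 of 14 regulator genes, with list medians of 0.39, 0.70 and 0.23, against a median of -0.14 and 2.57% called higher over all rows (3.02% lower). None of 7 lactose genes passed in either direction (median -0.37), and B4galt1, the partner of alpha-lactalbumin, had -0.49 (SE 0.19, adjusted p = 0.137). Of 11 lipid genes only the acyltransferase gene Gpam passed, and it was lower (-0.86, SE 0.20, adjusted p = 0.043, list median -0.24). Csn1s2a (0.39, adjusted p = 0.585) and Csn2 (-0.08, adjusted p = 0.936) did not differ past the threshold.

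**Figure D5:**
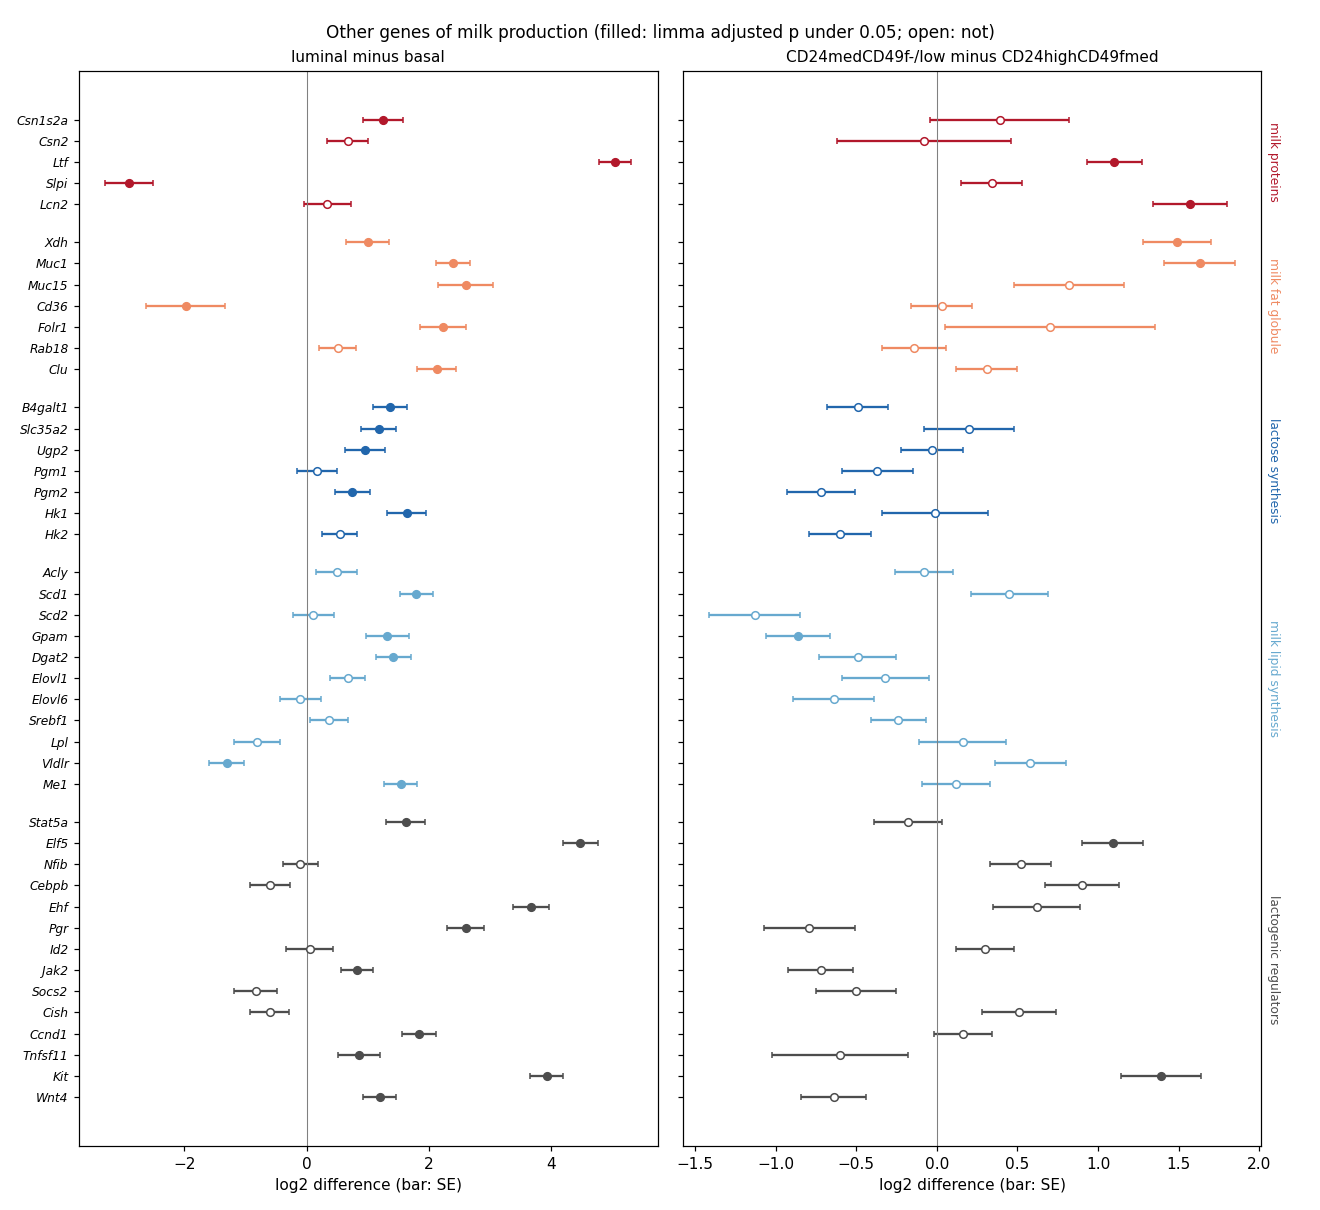
Fitted log2 differences (x axis) of other measured genes of milk production, grouped by list, for luminal minus basal and for CD24medCD49f-/low minus CD24highCD49fmed, with bars of 1 SE; filled points have a limma adjusted p under 0.05. Ltf and Elf5 had the largest differences in the first comparison (5.05 and 4.48), and Muc1 (1.63) and Lcn2 (1.57) those in the second.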

How the data were processed

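Milk genes were read from 14 Affymetrix arrays of 5 sorted populations. The authors deposited 1 table of log2 values: robust multichip average in MIDAS, a filter in Cluster 3.0 on signal and on a 4-fold range, and centring of rows. GCRMA is named as well in the submitters' processing notes. Software versions: not given in the sources used here. Every row mean was 0 and the smallest range 2 log2, so dim probe sets could not be judged, and the number of arrays limits the precision. The filter kept probe sets that differed somewhere, so the genes present had to vary.

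Probe sets with 1 symbol (8499) were averaged per gene to 6044 genes, of which 1765 had several. Those with more symbols (199) or no symbol (947) stayed as single rows, giving 7190 rows. Populations were compared by linear models with empirical Bayes moderation (limma 3.58.1, R 4.3.3), two-sided, fitted without covariates to only those arrays a comparison needed, at Benjamini-Hochberg adjusted p under 0.05 over all rows. The rank products of the study's methods were not run. Each luminal minus basal difference was also tested by exact permutation in scipy 1.17.1 (Python 3.11.15, numpy 2.4.6, pandas 2.3.3), and figures used matplotlib 3.10.9. The fits were tested on simulated data. The columns of the table held only the 14 arrays.

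Same-numbered CD24medCD49fmed arrays deviated from their group means together with Thy-1+CD24medCD49fhigh (r of 0.386 to 0.391) and Thy-1-CD24medCD49fhigh arrays (0.328 to 0.558) over all rows. Same-numbered Thy-1+CD24medCD49fhigh and Thy-1-CD24medCD49fhigh arrays did so less (-0.16 to 0.245). No label states a pairing, so whether the number pairs arrays is not known. The main fits and the permutation did not use the number. Genes named were the 6 members, up to 3 called genes a direction and pathway list, the 3 genes most like each member, and the first markers of each list, with others added after their values were seen. Members and lists were chosen with earlier results of these data known. Alternatives were a replicate block, array weights, single probe sets, median centring, quantile normalization, a log2 difference of 1 or more, all 14 arrays in 1 fit, and leaving out each array. Sequences are RefSeq's (GRCm38.p6), searched as letters only.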

Additional observations from a re-analysis of the deposited data

How the results depend on the processing

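Leaving out 1 array at a time, luminal minus basal called 1178 to 2820 rows higher and 946 to 1450 lower, with 4 to 5 members higher and 0 to 1 lower. CD24medCD49f-/low minus CD24highCD49fmed called 0 to 267 rows higher and 0 to 395 lower, with 0 to 3 members higher. Thy-1+CD24medCD49fhigh minus Thy-1-CD24medCD49fhigh called 0 to 6 higher and 0 to 4 lower, Thy-1+CD24medCD49fhigh minus CD24medCD49fmed 0 to 82 higher and 0 to 774 lower with 0 to 1 member lower, and Thy-1-CD24medCD49fhigh minus CD24medCD49fmed 0 to 1 lower. Where an arm was left with 1 array, that array was assumed to vary like the other group.

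Glycam1 lost its luminal minus basal call, leaving 0 members lower, with array weights (-1.61, adjusted p = 0.145), quantile normalization (-2.03, 0.117), both Thy-1+CD24medCD49fhigh arrays of low median left out (-2.39, 0.0646) and the 3 basal arrays of number 1 left out (-1.18, 0.203), the last pair of settings chosen after seeing the data. Csn3, Wfdc18, Btn1a1 and Lalba kept that call under every alternative run, and the Mfge8 difference of 0.96 lay under a required log2 difference of 1. Between the luminal populations, all 14 arrays in 1 fit gave 1 row higher, 3 lower and 0 members. The replicate block, for arrays that share only a number (2 pairs, r of 0.296 and 0.151), gave 322 higher and 507 lower and called Csn3 (0.90, 0.0206). Array weights gave 280 and 447, median centring 126 lower, quantile normalization 139 lower, and single probe sets 283 higher, among which 1451824_at of Btn1a1 did not pass (1.54, 0.0798).

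Thy-1+CD24medCD49fhigh minus Thy-1-CD24medCD49fhigh had 0 rows higher and 0 lower with 14 arrays in 1 fit, median centring, quantile normalization and single probe sets, 4 higher with the replicate block, and 53 higher and 146 lower with array weights, 1 of them a member (Csn3). Thy-1+CD24medCD49fhigh minus CD24medCD49fmed had 15 higher and 40 lower with the replicate block and 4 higher with array weights. The block changed no other call of a member.

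Signs turned only in values that had not passed. In Thy-1+CD24medCD49fhigh minus Thy-1-CD24medCD49fhigh, Btn1a1 became 0.06 (array weights), 0.21 (median centring), 0.34 (quantile normalization), 0.34 (1425754_a_at) and 0.13 (1451824_at), Glycam1 became -0.22 (array weights), and Lalba ranged from -0.09 to 0.16 as 1 array was left out (-0.01 and -0.04 among the values). In Thy-1+CD24medCD49fhigh minus CD24medCD49fmed, Btn1a1 became -0.19 (1419175_a_at) and ranged from -0.01 to 0.38 as 1 array was left out, and Glycam1 from -2.55 to 0.62 (0.54 among the values). In Thy-1-CD24medCD49fhigh minus CD24medCD49fmed, Glycam1 became 0.41 (array weights) and Mfge8 ranged from -0.59 to 0.01 as 1 array was left out. Between the luminal populations Glycam1 ranged from -0.56 to 0.02. The cause of these changes was not tested.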
